A study of Mus musculus with 30 samples.

Results

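The 46 genes described here encode the moving parts of the motile axoneme: axonemal dynein chains, the factors that assemble and dock them, radial spoke and nexin-dynein proteins, tektins and proteins of the central pair. They were chosen by gene symbol and role, and all 46 were matched by Ensembl identifier among the 65534 rows of a gene expression table. Expression had been measured by RNA-seq of germ cells enriched from mouse testes, and each value is in TPM, a unit of transcript abundance that scales for transcript length and library total. The 30 libraries came from males of 8, 12 and 16 days post partum (dpp), on a C57BL/6J background with less than 10% 129S1/SvImJ. The deposited column names sort them into 14 numbered sets, taken here as litters. At 8 dpp there were 3 Prdm9+/+, 2 Prdm9+/- and 5 Prdm9-/- libraries. At 12 dpp there were 1 Prdm9+/+, 4 Prdm9+/- and 5 Prdm9-/- libraries, and at 16 dpp 2 Prdm9+/+, 3 Prdm9+/- and 5 Prdm9-/- libraries. Prdm9+/+ and Prdm9+/- libraries are called non-mutant below, giving 5 non-mutants and 5 mutants at each age. The part of Prdm9 that the mutant allele lacks is not given in the labels.

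A motile cilium or sperm flagellum is built on a ring of microtubule doublets around a central pair of single microtubules. Outer and inner dynein arms on each doublet slide it along its neighbour, radial spokes carry signals between the central pair and the arms, the nexin-dynein regulatory complex ties doublets together, and tektins form filaments inside them. Dynein arms are put together in the cytoplasm by dedicated assembly factors before they are carried into the axoneme. In the testis this set of genes is known for being transcribed in meiotic spermatocytes, well before the round spermatid grows a tail. PRDM9 is a histone methyltransferase that marks the sites of meiotic recombination, and mouse spermatocytes without it are known to stop at a pachytene-like stage.

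Prdm9 itself had a mean of 25.1 TPM in the non-mutants and 10.0 TPM in the mutants of 16 dpp and was called lower there (log2 fold change -1.24, limma adjusted p = 0.0035). At 8 dpp its level did not mark the genotype, with 1.82 to 6.1 TPM in non-mutants and 4.77 to 8.98 TPM in mutants. In litter 13, of 12 dpp, the library labelled Prdm9-/- had 19.2 TPM of Prdm9 and the one labelled Prdm9+/- had 9.16 TPM, which goes against their labels, so counts at 16 dpp and for each age step are also given without that litter. Sertoli cell markers were present in every library and summed to between 8807 and 12470 TPM, so these libraries were not germ cells alone. None of the 13 Sertoli, 13 spermatogonial, 9 Leydig, 7 myoid or 8 macrophage markers tested was called different between mutants and non-mutants at 16 dpp, where 2.75% of all rows were called lower and 0.509% higher. Leydig markers nevertheless summed to a mean of 346.1 TPM in non-mutants and 509.9 TPM in mutants (median log2 difference 0.69), and macrophage markers to 106.8 and 158.3 TPM (0.52); ranges overlapped, and their part in the results was not tested. In RNA from mixed cells, fewer cells of a type and less RNA per cell cannot be told apart.

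In the young testes, most of the 46 genes were hardly expressed. In 8 dpp non-mutants the median member stood between 0.505 and 0.725 TPM across the 5 libraries, and only 7 members had a mean of 5 TPM or more. Those 7 were Dnal4, Spef1, Dnaaf2, Dnal1, Rsph1, Rsph9 and Ccdc39, led by the dynein light chain gene Dnal4 at a mean of 26.7 TPM. By 16 dpp the median member stood between 2.05 and 12.3 TPM in non-mutants, but between 0.98 and 1.38 TPM in mutants. The count of members above 1 TPM was 30 to 42 of 46 in the 5 non-mutants and 22 to 24 in the 5 mutants of that age. The groups did not overlap, but the like count was not made over all rows. Dnah5, Dnah9, Dnah3, Dnah10, Rsph4a and Tekt4 had a mean under 1 TPM in each of the 6 groups of age and mutant status. Dnah5, Dnah9 and Rsph4a are known for their roles in respiratory cilia.

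**Figure D1:**
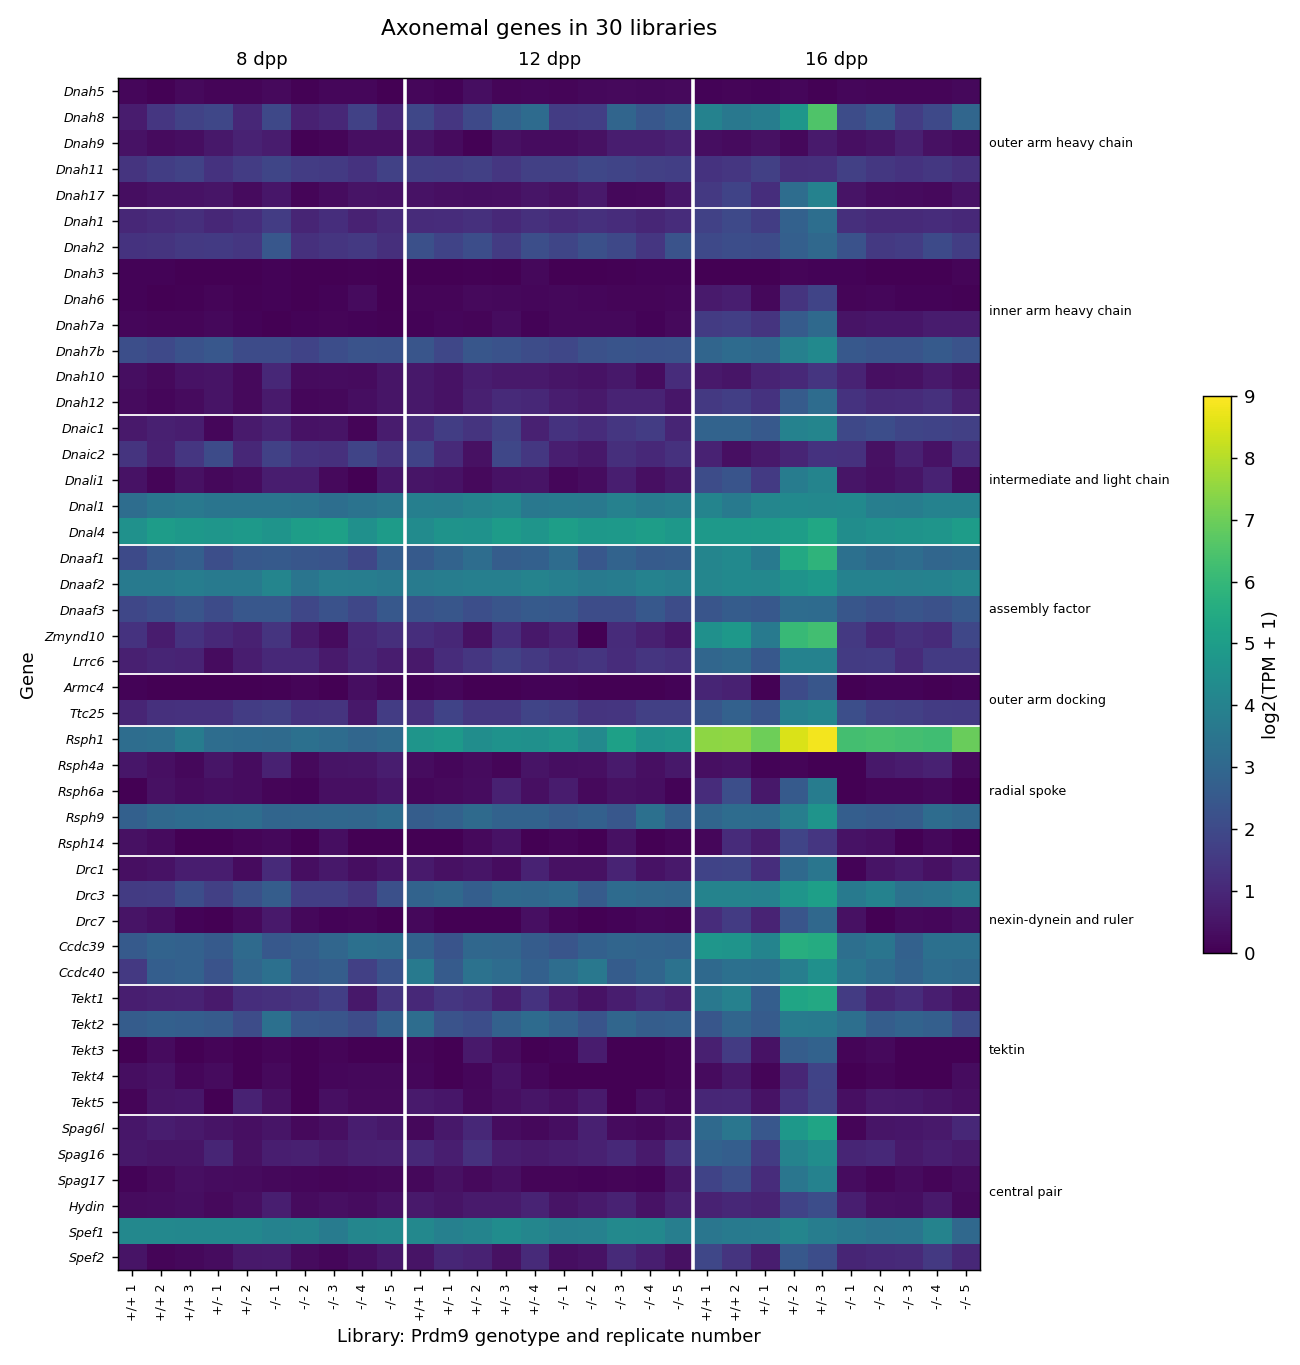
Levels of the 46 genes, in rows grouped by role, in each of the 30 libraries, in columns grouped by age; colour gives log2(TPM + 1). In the 16 dpp block many genes are brighter in the 5 non-mutant columns, mostly brightest in Prdm9+/- replicates 2 and 3. Rsph1, Dnal4, Dnaaf2, Dnal1, Drc3 and Spef1 are also bright in the 5 mutants.

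At 16 dpp, 20 of the 32 members that could be tested were lower in Prdm9-/- than in non-mutant libraries, none was higher, and 12 were not called. The test was limma on log2(TPM + 1), over the 20021 rows above 1 TPM in at least 5 libraries, at a Benjamini-Hochberg adjusted p under 0.05. Over all rows tested, 2.75% were called lower and 0.509% higher. The other 14 members were below that expression filter. Of the 32 tested, 6 passed it only through the 16 dpp non-mutants (Dnah17, Dnah7a, Dnali1, Drc1, Spag6l and Spag17), and those 6 had to differ; among the 26 that passed in the remaining 25 libraries alone, 14 were lower. In a fit with no filter, 27 of 46 were lower and none was higher, beside 2.16% lower and 0.376% higher of all rows with a value. The median log2 difference over all 46 members was -0.92, beside 0.07 over all rows tested, and single members ranged from -3.71 (Zmynd10) to 0.27 (Rsph4a). In 25 of 46 members every mutant library lay below every non-mutant library, which held for 1.63% of all rows with a value. Of those 25, 20 were among the 32 tested, beside 2.28% of rows tested. In no member did every mutant lie above every non-mutant, beside 2.07% of rows tested.

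The size of the drop depended on which non-mutants it was measured against. The summed level of the 46 genes was 350.6 TPM in Prdm9+/- replicate 1, 443.6 and 473.8 TPM in the 2 Prdm9+/+ libraries, and 939.4 and 1230 TPM in Prdm9+/- replicates 2 and 3. The 5 mutants lay between 213.2 and 274.7 TPM, below all of these. Prdm9+/- replicates 2 and 3 were both above the other 3 non-mutants in 42 of 46 members. Replicate 3 was the highest of all 10 libraries of 16 dpp in 33. Neither count was made over all rows. The same order held for Ldhc, the lactate dehydrogenase of pachytene spermatocytes, at 42.0, 156, 174, 464 and 602 TPM in that order of libraries, and at 3.20 to 6.09 TPM in mutants. Of 12 pachytene and diplotene markers tested, 10 were lower in mutants, beside 2.75% of all rows; that list holds the member Spag6l. Of the 12, Cetn1, Tdrd6 and Spag6l passed the filter only through the 16 dpp non-mutants, and 7 of the other 9 were lower. Of 14 markers of earlier spermatocytes, 1 was lower and 13 were not called (median log2 difference -0.16). The part of spermatocyte stage in the members' differences was not tested.

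Without Prdm9+/- replicates 2 and 3, a setting chosen after seeing the data, 11 members were called lower and none higher. Of the 20, 6 then no longer passed the expression filter and 3 were tested but not called: Ttc25 (adjusted p = 0.084), Dnah12 (0.63) and Dnaaf2 (0.85), by limma. With Prdm9+/+ as the only controls 9 members were called lower, and with Prdm9+/- as the only controls 16. Without Prdm9+/- replicates 2 and 3 the ratio of group means, non-mutants over mutants, went from 24.9 to 12.4 for Zmynd10, from 35.0 to 15.2 for Spag6l and from 21.7 to 10.2 for Tekt1. In each of these 3 settings all 14 of the 20 that were still tested had a negative difference. Shares of all rows called are not given for these settings, so the counts cannot be set against the whole table.

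Each litter of 16 dpp held 1 mutant and 1 non-mutant. The mutant was lower than its litter mate in 37 of 46 members in litter 2, 39 in litter 4, 40 in litter 5, 43 in litter 6 and 42 in litter 7. The median log2 difference within these pairs ran from -0.26 in litter 2 to -1.93 in litter 7. In 33 members the mutant was the lower of the pair in all 5 litters. These pair counts were not made over all rows, so no background share can be set beside them. Comparing within litters by a litter block in limma, 23 members were called lower and none of the 20 was lost, beside 3.33% of all rows called lower in that fit. The 3 added were Dnal4, Rsph9 and Drc3. Among the 23 are the 6 members that passed the filter only through the 16 dpp non-mutants.

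**Figure D2:**
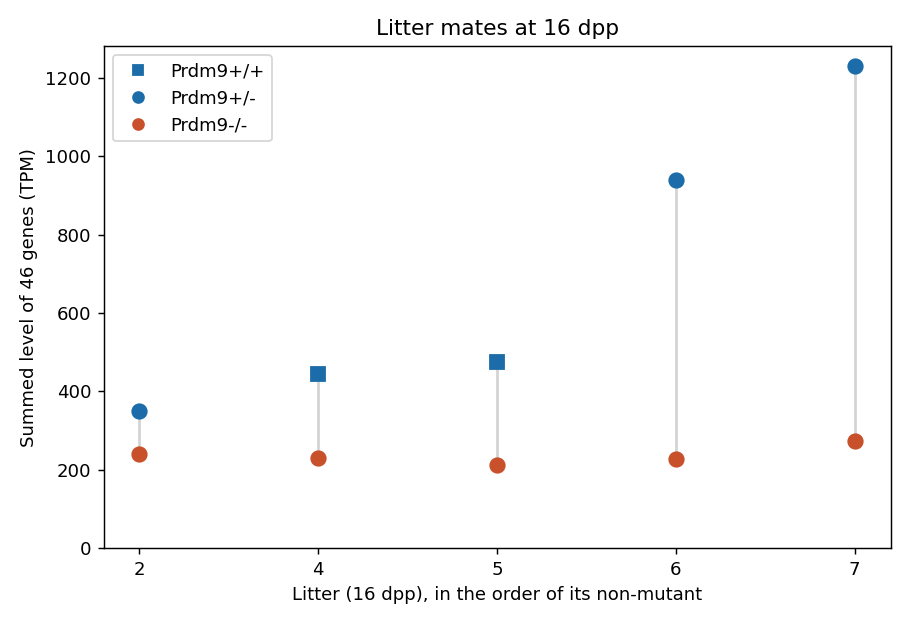
Summed TPM of the 46 genes (vertical axis, from 0) in the mutant and the non-mutant of each of the 5 litters of 16 dpp; grey lines join litter mates and squares mark Prdm9+/+. The mutants stay between 213.2 and 274.7 TPM while their litter mates range from 350.6 to 1230 TPM.

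**Figure D3:**
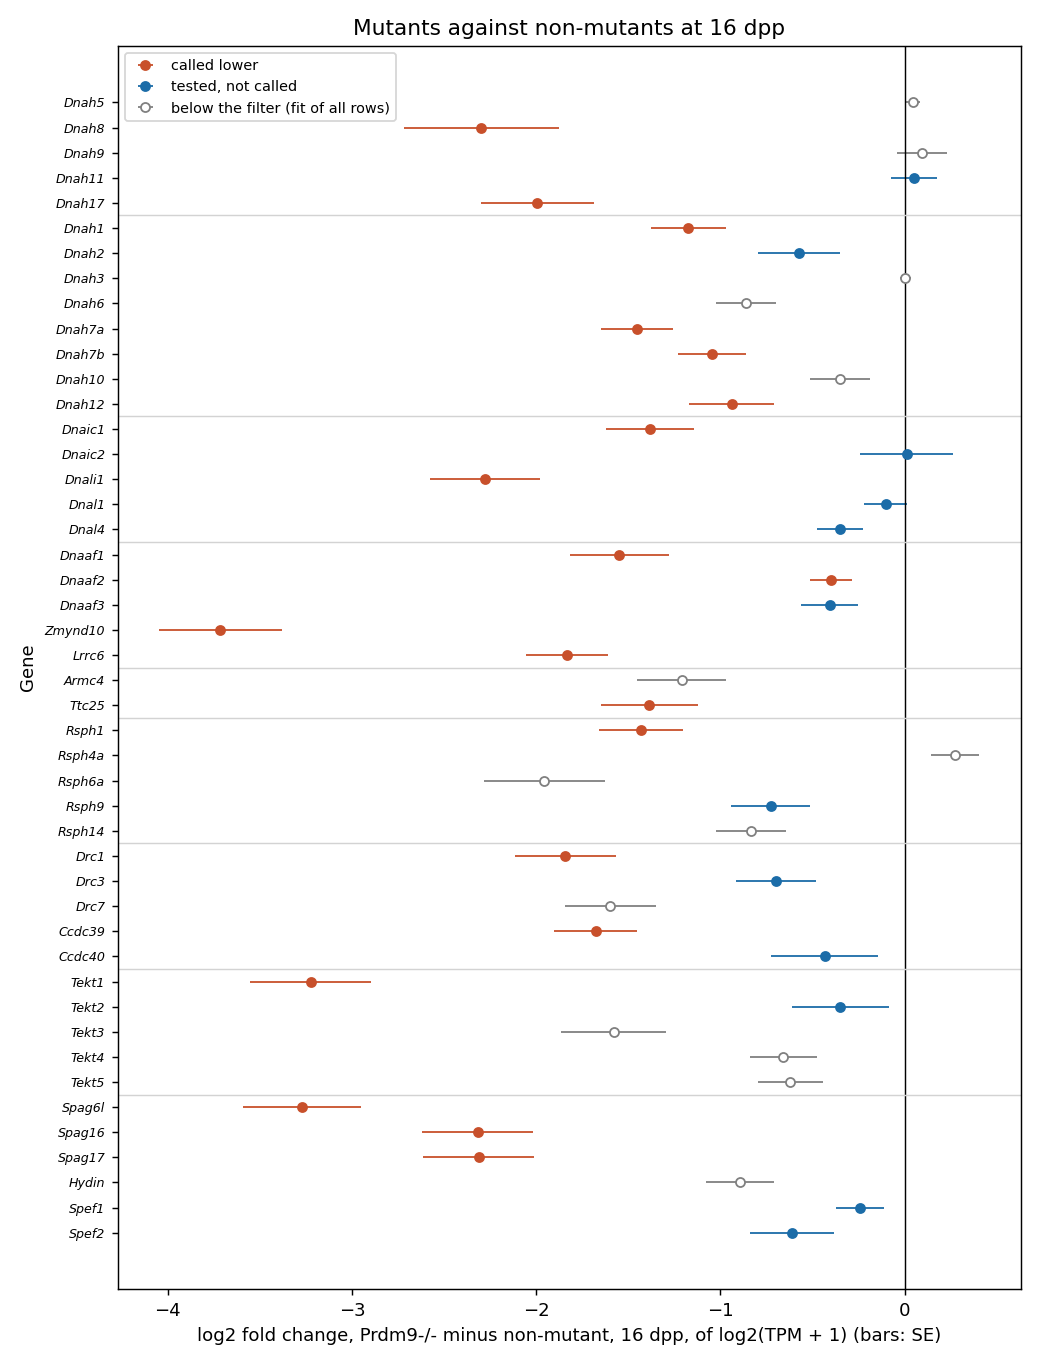
Log2 fold change of each of the 46 genes, mutants against non-mutants at 16 dpp, with its standard error as a bar; 20 filled orange points are called lower, 12 blue points are tested and not called, and 14 open points come from the fit of all rows. The estimates reach from -3.71 for Zmynd10 to 0.27 for Rsph4a.

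For the members that moved together, promoter sequences show which letters are shared. The RFX transcription factors bind an X-box and are known regulators of cilium genes, so 2 spellings of that box were searched on both strands of the 250 bases before each RefSeq gene start (GRCm38.p6). The short motif was GTTGCC, and the long one was the X-box with both of its arms, a match of which can contain the short one. Of the 46 members, 39 were in the promoter table, with 43 windows. The short motif was in 25.6% of the members' windows and in 10.4% of all 32841 windows; the long one was in 6.98% and 0.667%. The 120 bases before the start are shown for the 3 members with a long match (Spag16, Dnaaf2 and Hydin) and for 2 tektins with short matches, 1 called lower at 16 dpp (Tekt1) and 1 not (Tekt2). Capitals mark the RFX matches, and each sequence runs 5′ to 3′ on the gene's strand.
Spag16, chr1:69826850-69826969, plus strand: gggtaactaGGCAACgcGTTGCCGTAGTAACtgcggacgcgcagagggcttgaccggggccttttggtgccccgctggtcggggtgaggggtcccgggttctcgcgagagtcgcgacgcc
Dnaaf2, chr12:69198430-69198549, minus strand: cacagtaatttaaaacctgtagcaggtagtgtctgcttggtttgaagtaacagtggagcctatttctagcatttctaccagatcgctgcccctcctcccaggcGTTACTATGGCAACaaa
Hydin, chr8:110266857-110266976, plus strand: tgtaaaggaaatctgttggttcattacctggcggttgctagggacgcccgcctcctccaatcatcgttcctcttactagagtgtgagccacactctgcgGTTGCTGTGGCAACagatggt
Tekt1, chr11:72361883-72362002, minus strand: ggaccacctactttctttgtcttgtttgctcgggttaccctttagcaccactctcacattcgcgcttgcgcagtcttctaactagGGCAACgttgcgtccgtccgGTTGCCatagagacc
Tekt2, chr4:126325689-126325808, minus strand: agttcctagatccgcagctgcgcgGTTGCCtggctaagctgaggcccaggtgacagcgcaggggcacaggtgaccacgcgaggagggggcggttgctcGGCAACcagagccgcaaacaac

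Short matches were found in members that were called lower and in members that were not. Tekt1 and Tekt2 each held 2 short matches within the bases shown, and one was called lower and the other was not. Zmynd10 and Spag6l, with the largest drops, held neither spelling in their windows. The short motif was in 6 of 17 windows of members called lower and in 3 of 14 windows of members tested and not called. Of those 3, 2 are overlapping Tekt2 windows that hold the same 2 sites, so by gene the counts are 6 of 16 and 2 of 12. The long motif was in 2 of the 17 windows and 0 of the 14, and its other match, in Hydin, is in a member below the filter that was called lower in the fit with no filter. The core of the MYB site, CAGTT, was in 52.9% of the windows of members called lower, 64.3% of those not called and 39.1% of all windows. By gene the MYB counts were 9 of 16 called lower and 7 of 12 not called. Such a match is only a run of letters and does not show that a factor binds there.

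Among the factors themselves, 3 of the 11 cilium gene regulators tested were lower in mutants at 16 dpp and none was higher, beside 2.75% and 0.509% of all rows. Rfx2, an RFX factor needed for spermiogenesis, had 22.8 ± 11.1 TPM in non-mutants and 9.69 ± 2.02 TPM in mutants (SD, n = 5 each; log2 fold change -1.06, limma adjusted p = 0.013). Rfx4 had 4.78 ± 3.82 TPM in non-mutants and 0.15 ± 0.135 TPM in mutants (SD, n = 5 each), and it passed the expression filter only through those non-mutants; of the other 10 regulators, 2 were lower. Tcfl5, a germ cell transcription factor, had 72.2 and 43.2 TPM as group means. Foxj1, the general regulator of motile cilia, stood at 2.50 and 2.60 TPM and was not called, and Mcidas and Gmnc, which start the multiciliated cell programme, were at or near 0 in every library (at most 0.24 and 0.29 TPM).

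The outer arm heavy chains are the motors that set beat frequency. The forms known from the sperm flagellum, Dnah8 and Dnah17, were called lower in mutants, Dnah11 was not called, and Dnah5 and Dnah9 were below the filter. Dnah8 (chr17:30624354-30877365) had 14.7 and 11.03 TPM in the Prdm9+/+ libraries, 12.9, 25.4 and 91.1 TPM in the Prdm9+/- libraries, and 3.23, 4.49, 2.05, 2.97 and 6.89 TPM in the mutants of 16 dpp. The groups did not overlap, and Prdm9+/- replicate 3 stood far above its group. The log2 fold change was -2.30 ± 0.42 (SE, limma adjusted p = 5.8e-04), and it missed the threshold against Prdm9+/+ alone (-1.56, adjusted p = 0.096). Dnah17 (chr11:118021723-118130634) had 1.80 and 2.51 TPM in Prdm9+/+, 1.28, 8.30 and 14.8 TPM in Prdm9+/-, and 0.39, 0.23, 0.19, 0.18 and 0.37 TPM in mutants. It passed the expression filter only because the 5 non-mutants of 16 dpp were above 1 TPM, so the gap between the groups follows from the filter. Its log2 fold change was -1.99 ± 0.30 (SE, limma adjusted p = 4.8e-05), and the ratio of group means was 21.1, or 12.8 without Prdm9+/- replicate 3. The respiratory form Dnah11 had means of 1.64 and 1.72 TPM in non-mutants and mutants.

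Of the inner arm heavy chains, which shape the bend of the beat, 4 of 5 tested were lower, beside 2.75% of all rows. Dnah1 (chr14:31260375-31323896), known for sperm tail defects in men who lack it, had 2.33 and 2.98 TPM in Prdm9+/+, 2.11, 6.00 and 8.49 TPM in Prdm9+/-, and 1.33, 1.10, 1.11, 1.2 and 1.06 TPM in mutants. The mutants formed a narrow band just below the lowest non-mutant. Its log2 fold change was -1.17 ± 0.20 (SE, limma adjusted p = 2.6e-04). Dnah7a (chr1:53397006-53706784) had 1.94 and 2.22 TPM in Prdm9+/+, 1.53, 4.96 and 7.36 TPM in Prdm9+/-, and 0.39, 0.47, 0.46, 0.62 and 0.61 TPM in mutants. Its log2 fold change was -1.45 ± 0.20 (SE, limma adjusted p = 7.6e-06). Dnah7a passed the expression filter only through the 16 dpp non-mutants, so its gap follows from the filter. Dnah7b, also lower (-1.05), is a close copy of Dnah7a, so how reads were split between the 2 genes is uncertain. Dnah12 was lower by -0.94 on the log2 scale, while Dnah2, with means of 4.44 and 2.57 TPM, was not called (adjusted p = 0.23). The Dnah12 call was lost with only the groups compared (limma adjusted p = 0.17) and with pseudocount 0.1 (0.084). It was also lost without Prdm9+/- replicate 2 (0.087) or 3 (0.085). It held with the litter block (0.027) and against Prdm9+/- alone (0.0068). Against Prdm9+/+ alone the log2 fold change was -0.48 for Dnah12 and -0.62 for Dnah7b, and both calls were lost. Dnah6, below the filter, was at 0.14 to 2.59 TPM in non-mutants and 0.04 to 0.11 TPM in mutants.

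Intermediate and light chains tie heavy chains to their cargo doublet. Here 2 of 5 were lower, beside 2.75% of all rows: the outer arm intermediate chain gene Dnaic1 and the inner arm light chain gene Dnali1. Dnali1 (chr4:125055338-125065703) had 3.28 and 4.07 TPM in Prdm9+/+, 1.92, 12.8 and 15.8 TPM in Prdm9+/-, and 0.42, 0.30, 0.42, 0.81 and 0.16 TPM in mutants. The log2 fold change was -2.28 ± 0.30 (SE, limma adjusted p = 3.9e-06). Dnali1 passed the expression filter only through the 16 dpp non-mutants, so its gap follows from the filter. Dnaic1 (chr4:41569775-41638158) had 6.36 and 6.34 TPM in Prdm9+/+, 4.66, 14.9 and 16.0 TPM in Prdm9+/-, and 2.83, 3.32, 2.64, 2.49 and 2.23 TPM in mutants. The mutants again lay below all 5 non-mutants (-1.38 ± 0.24, SE; limma adjusted p = 2.8e-04).

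The light chain genes Dnal1 and Dnal4 were among the members most expressed at 8 dpp. Dnal1, an outer arm light chain gene, had 15.7 and 12.2 TPM in Prdm9+/+, 16.6, 18.5 and 17.6 TPM in Prdm9+/-, and 18.5, 13.3, 13.2, 14.98 and 14.7 TPM in mutants. These values overlapped throughout (-0.10 ± 0.12, SE; limma adjusted p = 0.77), and the sign turned without Prdm9+/- replicates 2 and 3. Dnal4 had 27.9 and 27.7 TPM in Prdm9+/+, 29.2, 31.5 and 40.6 TPM in Prdm9+/-, and 20.3, 22.5, 23.5, 24.98 and 30.2 TPM in mutants. One mutant lay within the non-mutant range, and the difference was not called (-0.35 ± 0.12, SE; limma adjusted p = 0.15) except with litter in the model (adjusted p = 0.012) or other scalings. The adjusted p was 0.66 against Prdm9+/+ alone and 0.55 without Prdm9+/- replicate 3.

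Assembly factors held the largest single change of all 46 genes. Zmynd10 (ENSMUSG00000010044, chr9:107547298-107551319, plus strand), which works with Lrrc6 in folding dynein heavy chains, had 21.8 and 26.6 TPM in Prdm9+/+, 12.1, 66.6 and 75.7 TPM in Prdm9+/-, and 1.85, 1.0, 1.38, 1.17 and 2.74 TPM in mutants. The highest mutant was far below the lowest non-mutant, and the ratio of group means was 24.9. The log2 fold change was -3.71 ± 0.33 (SE, limma adjusted p = 6.1e-09). Lrrc6 (chr15:66379858-66500910) had 6.79 and 7.54 TPM in Prdm9+/+, 4.59, 15.1 and 14.7 TPM in Prdm9+/-, and 1.98, 2.06, 1.16, 1.89 and 1.88 TPM in mutants. It changed by -1.83 ± 0.22 on the log2 scale (SE, limma adjusted p = 1.4e-06). Dnaaf1 was also lower (-1.55), from a mean of 29.3 TPM in non-mutants to 7.76 TPM in mutants.

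The assembly factor genes Dnaaf2 and Dnaaf3 were already expressed at 8 dpp and differed little. Dnaaf2 was called lower by only -0.40 on the log2 scale, from 20.5 to 15.1 TPM as means. That call was lost with Prdm9+/+ controls alone, with only the groups compared and without litter 13. It was also lost without Prdm9+/- replicate 2, 3 or both, or any of mutant replicates 1 to 4, of 16 dpp (limma adjusted p = 0.052 to 0.85 over these settings). It held against Prdm9+/- alone (adjusted p = 0.018) and with litter as a block (0.029). Dnaaf3 had 4.17 and 5.17 TPM in Prdm9+/+, 4.64, 7.99 and 7.84 TPM in Prdm9+/-, and 4.27, 3.64, 4.22, 3.74 and 4.75 TPM in mutants. Its groups overlapped and it was not called (-0.41 ± 0.16, SE; limma adjusted p = 0.22).

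Docking proteins fix the outer arm on its doublet. Ttc25 (chr11:100545607-100572568) had 4.35 and 5.93 TPM in Prdm9+/+, 4.11, 14.6 and 16.5 TPM in Prdm9+/-, and 3.44, 2.45, 2.23, 1.99 and 1.87 TPM in mutants. The highest mutant was close to the lowest non-mutant, although the groups did not overlap (-1.39 ± 0.26, SE; limma adjusted p = 9.4e-04). Against Prdm9+/+ alone the log2 fold change of Ttc25 was -0.86, and the call was lost. Armc4, below the filter, had 0.93, 0.77, 0.04, 3.18 and 4.29 TPM in the non-mutants and 0 to 0.07 TPM in the mutants, so Prdm9+/- replicate 1 lay with the mutants.

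Radial spoke genes spanned the whole range of levels. Rsph1 (ENSMUSG00000024033, chr17:31255019-31277383, minus strand), a spoke head protein, made up 36.3% to 39.7% of the summed level of the 46 genes in 16 dpp non-mutants and 32.5% to 44.5% in mutants. It had 176 and 180 TPM in Prdm9+/+, 127, 359 and 461 TPM in Prdm9+/-, and 79.1, 82.1, 77.7, 73.9 and 122 TPM in mutants. All mutants lay below all non-mutants, and mutant replicate 5 came close to the lowest of them. The log2 fold change was -1.43 ± 0.23 (SE, limma adjusted p = 9.4e-05). Rsph9, also of the spoke head, had 6.59 and 8.17 TPM in Prdm9+/+, 7.80, 13.4 and 23.99 TPM in Prdm9+/-, and 5.50, 4.94, 5.26, 8.13 and 7.04 TPM in mutants. These overlapped, and Rsph9 just missed the threshold (-0.73 ± 0.21, SE; limma adjusted p = 0.057), on either side of which it fell with the setting. The adjusted p was 0.0068 with the litter block and 0.0085 against Prdm9+/- alone. It was 0.25 with only the groups compared, 0.68 against Prdm9+/+ alone, 0.20 without Prdm9+/- replicate 2 and 0.31 without replicate 3 (log2 fold change -0.45).

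The spoke head gene Rsph6a, known from sperm flagella, was below the filter. It had 1.22, 3.48, 0.49, 4.86 and 12.6 TPM in the 5 non-mutants and 0 to 0.13 TPM in mutants, and was called lower in the fit with no filter (-1.96 ± 0.33, SE; limma adjusted p = 3.8e-04). Rsph4a, listed at 0 to 0.36 TPM in non-mutants and 0 to 0.79 TPM in mutants, was not called there.

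In the nexin-dynein complex and the ruler proteins that space the arms, 2 of 4 tested were lower, beside 2.75% of all rows. Drc1 (chr5:30281388-30366695), a scaffold of the complex, had 2.52 and 2.70 TPM in Prdm9+/+, 1.28, 7.45 and 10.4 TPM in Prdm9+/-, and 0.07, 0.38, 0.56, 0.31 and 0.61 TPM in mutants. Its log2 fold change was -1.84 ± 0.27 (SE, limma adjusted p = 3.0e-05). Drc1 passed the expression filter only through the 16 dpp non-mutants, so it had to differ. Ccdc39 (chr3:33812362-33844310), one of the ruler pair, had 25.2 and 24.4 TPM in Prdm9+/+, 15.7, 48.9 and 45.3 TPM in Prdm9+/-, and 8.82, 10.3, 5.93, 9.0 and 8.97 TPM in mutants. The mutants did not reach the lowest non-mutant (-1.68 ± 0.22, SE; limma adjusted p = 5.9e-06).

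Its partner Ccdc40, which forms the ruler with Ccdc39, was not called. Ccdc40 had 7.41 and 8.98 TPM in Prdm9+/+, 8.51, 13.4 and 21.8 TPM in Prdm9+/-, and 10.3, 8.15, 6.31, 8.02 and 7.5 TPM in mutants. Mutants lay on both sides of the Prdm9+/+ libraries (-0.43 ± 0.29, SE; limma adjusted p = 0.59). Whether the 2 ruler genes differ from each other was not tested. Drc3 had 15.4 and 15.3 TPM in Prdm9+/+, 14.46, 24.97 and 33.0 TPM in Prdm9+/-, and 11.8, 15.04, 9.49, 10.2 and 12.4 TPM in mutants. One mutant lay within the non-mutant range (-0.70 ± 0.21, SE; limma adjusted p = 0.077), and the adjusted p was 0.049 with the litter block but 0.12 with the title number as a block. It was 0.62 against Prdm9+/+ alone, 0.25 without Prdm9+/- replicate 2 and 0.39 without replicate 3. Drc7 was below the filter, at 0.85 to 7.31 TPM in non-mutants and 0 to 0.31 TPM in mutants.

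Of the tektins, 1 of 2 tested was lower, beside 2.75% of all rows. Tekt1 (ENSMUSG00000020799, chr11:72344722-72362442, minus strand) had 11.2 and 14.7 TPM in Prdm9+/+, 5.40, 38.1 and 42.2 TPM in Prdm9+/-, and 1.96, 0.92, 1.2, 0.69 and 0.37 TPM in mutants. The groups were well apart, and the ratio of means was 21.7 (-3.22 ± 0.33, SE; limma adjusted p = 6.3e-08). Tekt2 had 4.32 and 6.62 TPM in Prdm9+/+, 5.0, 12.3 and 11.9 TPM in Prdm9+/-, and 8.79, 5.35, 6.37, 5.56 and 3.12 TPM in mutants. Tekt2 groups overlapped (-0.35 ± 0.26, SE; limma adjusted p = 0.64), and its sign turned against Prdm9+/+ alone and without Prdm9+/- replicates 2 and 3. Tekt3, Tekt4 and Tekt5 were below the filter. Of these, Tekt3 was called lower in the fit with no filter, with 0.35 to 6.08 TPM in non-mutants and 0 to 0.18 TPM in mutants.

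Central pair genes included some of the most extreme ratios. Spag6l (ENSMUSG00000022783, chr16:16753016-16829456, minus strand), a central pair protein needed for sperm motility, had 7.5 and 10.7 TPM in Prdm9+/+, 4.39, 27.2 and 36.8 TPM in Prdm9+/-, and 0.09, 0.41, 0.47, 0.52 and 0.98 TPM in mutants. It passed the filter only through the 16 dpp non-mutants, and the ratio of means was 35.0 (-3.27 ± 0.32, SE; limma adjusted p = 3.0e-08). Spag16 (chr1:69826970-70725132) had 6.13 and 5.48 TPM in Prdm9+/+, 1.98, 15.4 and 20.2 TPM in Prdm9+/-, and 0.89, 1.05, 0.54, 0.69 and 0.54 TPM in mutants. Its log2 fold change was -2.32 ± 0.30 (SE, limma adjusted p = 3.6e-06). Spag17 was lower by a like amount (-2.31), but it too passed the filter only through the 16 dpp non-mutants. Hydin, below the filter, was called lower only in the fit with no filter (-0.89).

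The microtubule-binding gene Spef1 was not called at 16 dpp. It was among the highest members at 8 dpp, with means of 17.2 TPM in non-mutants and 15.4 TPM in mutants. At 16 dpp it had 10.6 and 11.7 TPM in Prdm9+/+, 12.5, 16.1 and 13.1 TPM in Prdm9+/-, and 11.2, 10.2, 10.4, 15.2 and 7.29 TPM in mutants. The groups overlapped (-0.24 ± 0.13, SE; limma adjusted p = 0.47). Exons of Spef1 overlap those of Cenpb on the same strand, so its level is uncertain. Spef2, a central pair and sperm tail gene, had means of 2.57 and 1.16 TPM and was not called.

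**Figure D4:**
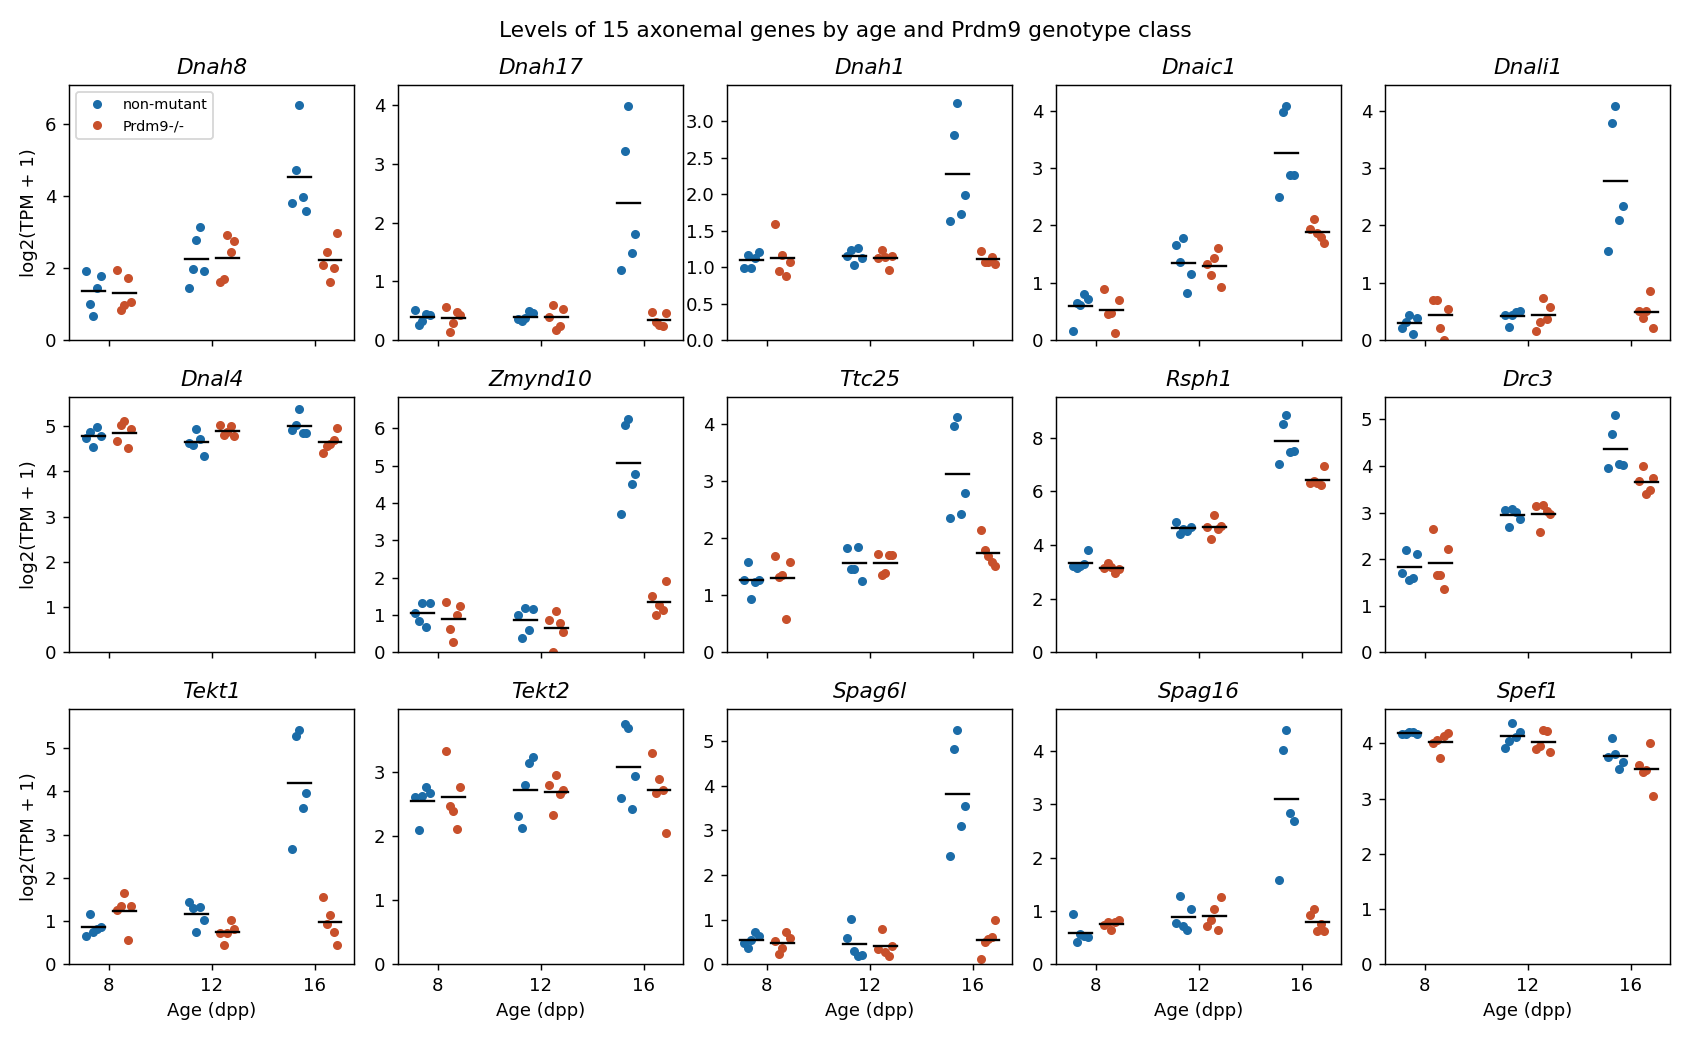
Log2(TPM + 1) of 15 of the genes (vertical axes, each from 0) against age, with 1 point per library and a black bar at the mean of 5 libraries. Mutant and non-mutant points overlap at 8 and 12 dpp in each gene shown, and at 16 dpp lie below them in genes such as Zmynd10 and Tekt1 but among them in Tekt2 and Spef1.

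Exons of 21 of the 46 members overlap exons of another gene in the GENCODE M21 annotation, in all 21 cases on the opposite strand and in 3 also on the same strand. Since the strand setting of the counting is not given in the sources used here, levels of these genes could include reads of their neighbours. Among the genes with large drops this applies to Zmynd10, Dnali1 (with Gnl2), Ccdc39 (with Ttc14), Dnaic1, Dnaaf1, Dnah1, Dnah8, Dnah17 and Spag17, and not to Tekt1, Spag6l, Spag16, Rsph1, Lrrc6, Drc1 or Ttc25. The 3 members with overlap on the same strand are Spef1, Dnaaf2 and Dnaaf3 (with Tnni3), so their levels are uncertain under any strand setting.

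Before 16 dpp, no member was called different between mutants and non-mutants. At 12 dpp limma called 0 of 32 members and 0.0% of all rows, with 1 member and 225 rows at an unadjusted p under 0.05. At 8 dpp it again called 0 of 32 members and 0.0% of rows, with 0 members and 417 rows at an unadjusted p under 0.05. The median difference over the 46 members was -0.01 at 12 dpp and 0.03 at 8 dpp on the log2 scale, and the range at 12 dpp was -0.42 to 0.31. The summed level was 112.3 to 143.1 TPM in non-mutants and 118.0 to 151.5 TPM in mutants at 8 dpp, and 154.8 to 180.2 and 147.6 to 181.6 TPM at 12 dpp. Within litters the direction was mixed: in litter 3, of 8 dpp, the mutant was lower in 9 members, and in litter 12, of 12 dpp, in 29.

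A few axonemal genes rose early in both genotype classes. From 8 to 12 dpp, 4 members were called higher in non-mutants, beside 20.3% of all rows, and 4 in mutants, beside 17.5%. None was called lower, beside 12.1% and 12.2%. Both times they were Rsph1, Drc3, Dnaic1 and Dnal1. Rsph1 went from 8.24, 8.87, 12.9, 8.37 and 7.76 TPM in the 8 dpp non-mutants to 24.7, 27.9, 20.4, 23.03 and 22.02 TPM in those of 12 dpp (1.28 ± 0.23 on the log2 scale, SE; limma adjusted p = 8.6e-05). In mutants it went from a mean of 7.81 to 24.9 TPM (1.53 ± 0.23, SE; limma adjusted p = 8.1e-06). Drc3 rose from 2.63 to 6.70 TPM in non-mutants and from 2.96 to 6.96 TPM in mutants, as means of 5 libraries. As a share of members, 4 of 32 is below the share of all rows that rose at this step. Without litter 13 the same 4 were called in each class, beside 16.5% of all rows higher in non-mutants and 14.7% in mutants. The count in non-mutants was 8 when Prdm9+/- replicate 3 of 16 dpp was left out.

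The main rise of the set came between 12 and 16 dpp, and mostly in non-mutants. There, 24 of 32 members were called higher and 1 lower, beside 8.88% and 13% of all rows. The 6 members that passed the filter only through these 16 dpp libraries are among the 24 and had to rise; of the other 26, 18 were higher and 1 was lower. The median change over all 46 members was 1.16 on the log2 scale, against -0.09 over all rows tested. The 5 largest were Zmynd10 (4.21 ± 0.33), Spag6l (3.37 ± 0.32), Rsph1 (3.25 ± 0.23), Tekt1 (3.03 ± 0.33) and Dnali1 (2.35 ± 0.30, SE), each with a limma adjusted p of 1.1e-06 or less. As ratios of mean TPM, Zmynd10 rose 46.8 times, Spag6l 42.6 times, Rsph1 11.1 times and Tekt1 17.5 times; without Prdm9+/- replicates 2 and 3 of 16 dpp these were 23.3, 18.6, 6.83 and 8.17 times. The fall was in Spef1, from 16.7 to 12.8 TPM. All 20 members that were lower in mutants at 16 dpp were among the 24, in a comparison that shares the same 16 dpp non-mutants. With Prdm9+/+ controls alone 8 members were called higher, and without Prdm9+/- replicates 2 and 3 of 16 dpp 15 were higher and 1 lower. Without litter 13, 23 were higher and none lower, beside 8.1% and 10.1% of all rows, Dnal4 and Spef1 being lost.

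In mutants the same step moved 3 of 32 members: Rsph1 and Drc3 were higher and Spef1 was lower, beside 6.21% of all rows higher and 5.89% lower. The median change over the 46 members was 0.04, beside 0.00 over all rows tested. Rsph1 went from 24.7, 17.7, 33.7, 23.3 and 24.9 TPM at 12 dpp to the 73.9 to 122 TPM given above, a ratio of means of 3.50 and a log2 change of 1.77 ± 0.23 (SE, limma adjusted p = 4.8e-06). Every 16 dpp mutant was above every 12 dpp library in Rsph1. Drc3 changed by 0.68 ± 0.21 and Spef1 by -0.50 ± 0.13 (SE, limma adjusted p = 0.035 and 0.011). Zmynd10 had means of 0.622 and 1.63 TPM, Tekt1 0.692 and 1.03 TPM, and Spag6l 0.332 and 0.494 TPM in mutants of 12 and 16 dpp, and none of these steps was called. Without litter 13, Drc3 was lost and 2 members were called, beside 4.9% of all rows higher and 4.63% lower. Without mutant replicate 5 of 16 dpp, 1 member was called, and with only the groups compared in the fit 5 were higher and 1 lower.

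The difference between the 2 steps was tested directly. In 17 of 32 members the step was smaller in mutants and in none larger, beside 1.26% and 0.0849% of all rows. The 17 hold all 6 members that passed the expression filter only through the 16 dpp non-mutants; of the other 26 members, 11 had a smaller step in mutants. Zmynd10 differed most (-3.50 ± 0.47, SE; limma adjusted p = 3.5e-05), then Spag6l (-3.21 ± 0.45) and Tekt1 (-2.81 ± 0.47). For Rsph1, which rose in both classes, the step was smaller in mutants by -1.48 ± 0.32 (SE, limma adjusted p = 0.010). For Drc3 and Spef1 the difference of steps was not called (adjusted p = 0.48 and 0.97). The 17 shrank to 8 without Prdm9+/- replicate 2 or without replicate 3 of 16 dpp, and to 5 without both: Zmynd10, Lrrc6, Ccdc39, Tekt1 and Spag16. Against Prdm9+/- alone the count was 11, and with only the groups compared it was 10. Without litter 13 it was 12, beside 0.9% of all rows, and Dnaaf1, Dnah1, Dnah7b, Dnah8 and Dnaic1 were lost. Shares of all rows are not given for the other settings.

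**Figure D5:**
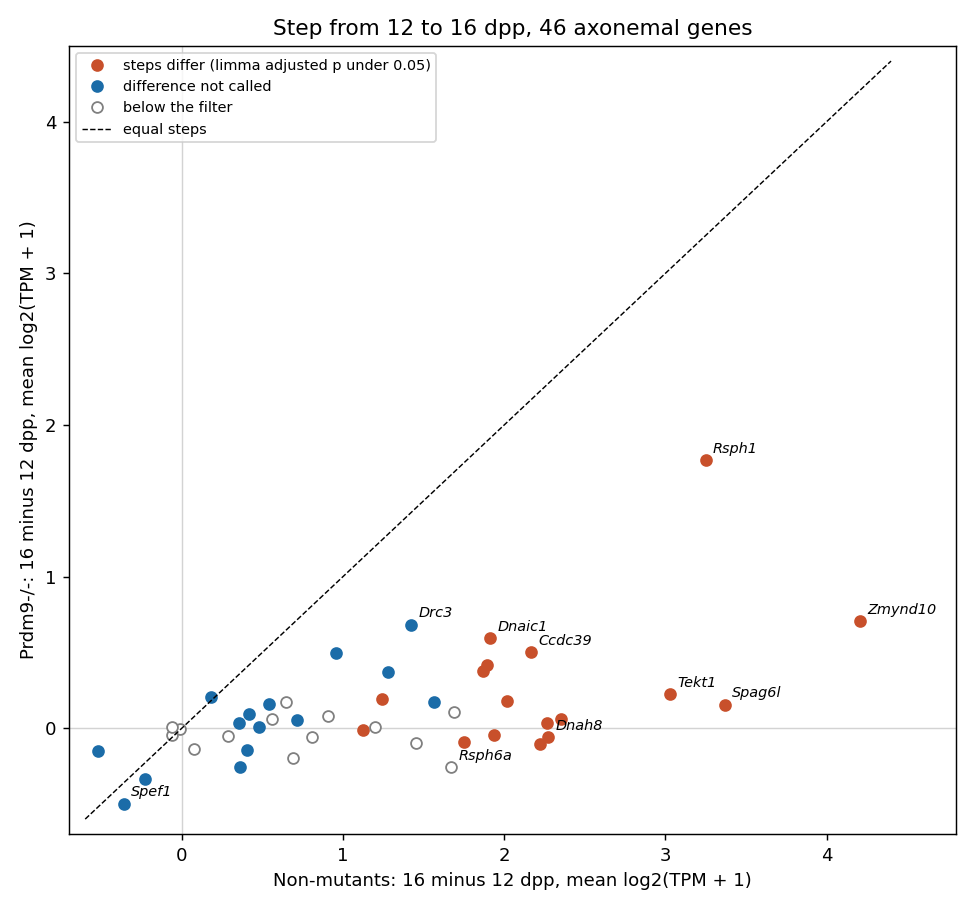
Change from 12 to 16 dpp in mean log2(TPM + 1) of the 46 genes in non-mutants (horizontal axis) and in Prdm9-/- (vertical axis); the dashed line marks equal steps. Most points lie along the horizontal, with Rsph1 the only one above 1 on the vertical axis.

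Loss of 1 copy of Prdm9 gave no called change. Between Prdm9+/- and Prdm9+/+ libraries, with age in the model, limma called 0 of 32 members and 0.0% of 18668 rows, with 2 members and 1972 rows at an unadjusted p under 0.05. At 16 dpp the Prdm9+/+ libraries lay between Prdm9+/- replicate 1 and replicates 2 and 3 in summed level, so the spread within Prdm9+/- exceeded the distance to Prdm9+/+.

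Further axonemal genes outside the 46 gave a similar count. Of 37 other axoneme genes tested, 20 were lower in mutants at 16 dpp and none was higher, beside 2.75% and 0.509% of all rows, with a median of -0.74 on the log2 scale. Of the 37, Dnaaf6, Iqcd, Dynlrb2 and Wdr63 passed the filter only through the 16 dpp non-mutants; of the other 33, 16 were lower. Ropn1l, a radial spoke and sperm fibrous sheath protein, had 102.7 ± 68.9 TPM in non-mutants and 14.1 ± 0.368 TPM in mutants (SD, n = 5 each). Dynlrb2, a dynein light chain gene, had 8.57 ± 6.05 and 0.132 ± 0.184 TPM, and Ccdc65, of the nexin-dynein complex, 13.9 ± 10.2 and 1.57 ± 0.329 TPM (SD, n = 5 each). In this list 27 genes rose from 12 to 16 dpp in non-mutants, beside 8.88% of all rows, and 9 in mutants, beside 6.21%. The difference of steps was called in 7, all smaller in mutants, beside 1.26% of all rows. Without the same 4 genes these counts were 23, 9 and 4 of 33. Of 11 genes of cytoplasmic dynein, the motor of intracellular transport, limma called 0 at 16 dpp, a count close to the 2.75% and 0.509% of all rows called lower and higher. Their median was -0.10 on the log2 scale, with Dync1h1 at means of 92.7 and 100.4 TPM, and whether they differ from the axonemal genes was not tested. The count of 0 depends on how the lists were drawn. Dynlrb2 (log2 fold change -2.78) and Tctex1d2 (-0.72), both called lower, were counted with the other axoneme genes. The dynein light chain genes Dynll1 (-0.07), Dynll2 (0.09) and Dynlt1a (-0.53), none of them called, were counted there too.

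Multiciliated epithelium is another tissue that expresses these genes. Of 14 of its markers, 7 were testable and limma called 0 of them at 16 dpp, which is close to the share of all rows called. The summed level of all 14 was 92.0 to 141.5 TPM in non-mutants and 105.0 to 125.3 TPM in mutants. Of that list, Sec14l3 was listed at 0 as a mean in both groups and Cdhr3 at 0.02 and 0.022 TPM. Of the spermatid markers, Prm1, Prm2 and Tnp2 were listed at 0 in all non-mutants of 16 dpp, and Acr, which is transcribed from pachytene on, was the 1 of 4 tested that was called lower; it passed the filter only through those non-mutants.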

How the data were processed

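Per the labels' protocols, tubules were freed with Liberase, washed to remove interstitial cells, and polyadenylated RNA was sequenced. The submitters' processing notes name Bowtie 1.0.0, RSEM 1.2.8 and mm10, with no role or order. The authors deposited TPM values to 2 decimals; sequencing depth is therefore unknown, and 3.23% to 3.95% of each library's TPM lies outside the table used here. The column names of the deposited file hold a number for each library, taken here as its litter, and the word litter is not in them. Libraries were matched to labels by name. Whether libraries of a group came from separate animals is not stated beyond that number, so p-values measure the spread between these libraries.

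Members were matched through GENCODE M21 and RefSeq symbols. Levels were taken as log2(TPM + 1), which understates changes of low genes. limma 3.58.1 in R 4.3.3 (trended variance) was fitted to rows above 1 TPM in at least 5 libraries, with 6 groups of age and mutant status, Benjamini-Hochberg adjustment over all rows, and a threshold of 0.05. On simulated data it was checked to recover seeded changes. Prdm9+/- and Prdm9+/+ were compared with age as a factor. Members and lists were chosen with earlier results of these data known. Named were the 2 called members of each role with the largest change at 16 dpp and members not called with at least 5 TPM in 16 dpp non-mutants, the 5 largest called age steps in each direction, and up to 4 called genes of each other list; further genes were named after their values were seen. Deviations from group means correlated within litters (17 pairs, median 0.22, 0.0628 to 0.39) more than between them (median -0.0836); 13 pairs were over 0.1.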

Additional observations from a re-analysis of the deposited data

Results flagged for a closer look

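The step from 12 to 16 dpp was smaller in mutants in 17 members, by limma's test of the difference, beside 1.26% of all rows. Of the 17, 6 passed the expression filter only through the 16 dpp non-mutants and had to rise there. They are Dnah17, Dnah7a, Dnali1, Drc1, Spag6l and Spag17. On the log2 scale, mutants minus non-mutants, the named ones were Zmynd10 at -3.50, Spag6l at -3.21, Tekt1 at -2.81, Dnah8 at -2.33, Spag16 at -2.33, Dnali1 at -2.29 and Dnah17 at -1.98. Smaller differences were those of Drc1 at -1.85, Lrrc6 at -1.84, Ccdc39 at -1.66, Rsph1 at -1.48, Dnah7a at -1.47, Dnaic1 at -1.32 and Dnah1 at -1.14.

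A single library stood apart from the other 4 of its group in 7 of 138 groups looked at, and chance flags about 1 in 20. Mutant replicate 5 of 16 dpp was highest in Rsph1 at 122 TPM. Mutant replicate 3 of 16 dpp was lowest in Lrrc6 at 1.16 TPM and in Ccdc39 at 5.93 TPM. Mutant replicate 4 of 12 dpp was lowest in Dnah7a at 0.05 TPM, and Prdm9+/- replicate 2 of 12 dpp lowest in Dnali1 at 0.17 TPM. Among 8 dpp non-mutants, Prdm9+/+ replicate 3 was highest in Rsph1 at 12.9 TPM and Prdm9+/- replicate 2 lowest in Tekt2 at 3.27 TPM.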

How the results depend on the processing

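At 16 dpp, members called lower numbered 20, and 9 with Prdm9+/+ controls alone, 11 without Prdm9+/- replicates 2 and 3, 27 with no filter, 19 without litter 13 and 14 to 21 with any 1 library left out. Without litter 13 and without Prdm9+/- replicates 2 and 3 were chosen after seeing the data. The 2 settings with fewer non-mutants also tested fewer members. Shares of all rows called in these settings are not given here. With only the groups compared in the fit, 17 of the 20 stayed called. Ttc25 (limma adjusted p = 0.051), Dnaaf2 (0.15) and Dnah12 (0.17) were lost. Adjusted p-values of the 20 were larger in that fit, at 8.8e-04 for Zmynd10, 0.0034 for Tekt1, 0.040 for Dnah17 and 0.048 for Dnah1. Other filters, pseudocount 0.1 and other scalings gave 19 to 27, and none was called higher. For the median of -0.92 over all members, leaving out 1 library gave -1.09 to -0.72.

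From 8 to 12 dpp in non-mutants, 4 members became 7 with pseudocount 0.1, 1 with Prdm9+/+ alone, 9 without Prdm9+/- replicates 2 and 3 of 16 dpp, 2 with a change over 1 also required, and 4 to 8 with 1 library left out. In mutants, 4 became 7 with Prdm9+/+ as the only non-mutants, 2 with a change over 1 required, and 3 to 6 with 1 library left out. From 12 to 16 dpp in non-mutants, 25 became 8 with Prdm9+/+ alone, 16 without Prdm9+/- replicates 2 and 3, and 18 to 26 with 1 library left out. In mutants, 3 became 6 with only the groups compared, 1 with a change over 1 required, and 1 to 3 with 1 library left out. The 17 members whose steps differed became 4 with Prdm9+/+ alone, 11 with Prdm9+/- alone, 10 with only the groups compared, 5 without Prdm9+/- replicates 2 and 3, and 8 to 18 with 1 library left out. With fewer 16 dpp non-mutants, some members no longer passed the filter and were not tested, which can lower a count. Prdm9+/+ alone left 1 non-mutant at 12 dpp and 2 at 16 dpp. Shares of all rows called in these settings are not given here, so a loss of calls over the whole table may be part of these moves. Further causes of these moves were not tested. The counts of 0 at 8 and 12 dpp and between Prdm9+/- and Prdm9+/+ stayed 0 in each setting run.

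With the replicate number of the titles as a block, 21 members were lower at 16 dpp; same-numbered libraries shared only a number (5 of 15 pairs correlated over 0.1). With litter as a block, or as a random effect, 23 were lower. Neither litter model was run for Prdm9+/- against Prdm9+/+, since no litter held both. The sign turned for Dnal1, at 0.0914 with Prdm9+/+ alone and 0.00804 without Prdm9+/- replicates 2 and 3, and for Tekt2, at 0.0486 and 0.0772. Depth is unknown, so differences among members near 0 TPM cannot be weighed against counting error.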
